A study of Mus musculus with 28 samples.

Results

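The regions described here are those that carry the H3K27ac mark around 10 genes of the YAP-TEAD pathway, Yap1, Wwtr1, Tead1, Tead2, Lats1, Lats2, Ctgf, Cyr61, Ankrd1 and Amotl2. A peak belonged to one of these genes when its summit lay within 100 kb of a protein-coding start site of the gene and no other protein-coding start site was nearer (mm9). By this rule 1802 of the 893719 peaks in 15 lists, merged into 154 of 89050 regions, belonged to them. A region was called promoter when its summit lay no more than 1000 bp upstream or 100 bp downstream of any annotated protein-coding start site, and distal otherwise, which gave 11 promoter and 143 distal regions. The distance in the name of a region is to the nearest start, so 3 promoter regions are named by a start more than 100 bp upstream of the summit. They count as promoter through other starts of Amotl2 (274 and 329 bp away) and of Tead2 (675 bp away), and at Lats1 through starts of the neighbouring gene Pcmt1 (188 and 194 bp away). By place, 75 lay between genes, 62 in introns and 17 in exons.

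YAP and TAZ, the products of Yap1 and Wwtr1, are transcriptional coactivators that have no DNA-binding domain and reach DNA through the TEAD factors, here Tead1 and Tead2. The kinases Lats1 and Lats2, at the end of the Hippo kinase cascade, phosphorylate YAP and TAZ and keep them out of the nucleus. Ctgf and Cyr61, which encode secreted matricellular proteins, Ankrd1, which encodes an ankyrin repeat protein, and Amotl2, which encodes an angiomotin that itself binds YAP, are well-known target genes of YAP and TAZ. H3K27ac, the acetylation of lysine 27 of histone H3, marks active promoters and enhancers.

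The cells were NMuMG, an untransformed mouse mammary epithelial line, of which 1 subclone (NMuMG/E9) was used. Each of 5 groups held 3 replicate libraries. The 0h group received no TGF-β, the 4h and 24h groups received 2 ng/ml TGF-β, which drives the epithelial to mesenchymal transition, for 4 or 24 h with the solvent DMSO, and the ERKi 4h and ERKi 24h groups received UO126, an inhibitor of the MEK kinases that activate ERK, at 25 µM from 30 min before the same TGF-β treatment. No group combined UO126 with 0h, so the effect of the inhibitor could not be separated from its effect on untreated cells. Since nothing in the labels says that replicates came from separate cultures, p-values measure the spread between these libraries.

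The libraries held 50445 to 69180 peaks, and the median pileup over shared regions was 63 to 110 fragments. The names of the peaks in ERKi 4h replicate 1 carry a library number that is out of the order seen in the other 14 lists, and calls that rest on this group are also given without that library. Peaks within 2500 bp of a start of Krt8, Krt18 and Cdh1, which mark epithelial cells, and of the mesenchymal genes Vim, Fn1, Cdh2 and Zeb1 were present in all 15 libraries, already at 0h. Of 3 basal mammary markers, Krt5 had a peak in all 15 and Krt14 and Trp63 in 0, and of the epithelial markers Epcam and Cldn7 had a peak in 0 libraries. Ptprc, Pecam1, Cdh5, Adipoq and Myod1, markers of other cell types, had a peak in 0 of 15.

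For the 4 target genes, the stretches of 200 bases just upstream of the 5′ end of the annotated gene are shown. The reason is that the TEAD motif GGAATG, searched on both strands and set in capitals, falls into them. At least 1 match was found there for 8.97% of 22355 protein-coding genes and at least 3 matches for 0.0358%, or 8 genes. Ctgf had 3 matches, and Cyr61, Ankrd1, Amotl2, Tead1, Wwtr1 and Yap1 had 1 each. Lats1, Lats2 and Tead2 had 0, which says only that these letters are not in this window. In genes with several annotated starts, such as Lats2 with 6, windows upstream of the other starts were not searched. A match is a run of letters and not a measured binding site. The sequences are given 5′ to 3′ on the strand of the gene, from mm9, at chr10:24315048-24315247, plus strand (Ctgf), chr3:145312950-145313149, minus strand (Cyr61), chr19:36194335-36194534, minus strand (Ankrd1) and chr9:102618802-102619001, plus strand (Amotl2).
Ctgf upstream: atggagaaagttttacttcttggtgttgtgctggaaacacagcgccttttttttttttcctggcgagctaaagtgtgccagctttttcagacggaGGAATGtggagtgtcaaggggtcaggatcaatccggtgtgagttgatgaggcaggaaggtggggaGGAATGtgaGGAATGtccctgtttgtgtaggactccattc
Cyr61 upstream: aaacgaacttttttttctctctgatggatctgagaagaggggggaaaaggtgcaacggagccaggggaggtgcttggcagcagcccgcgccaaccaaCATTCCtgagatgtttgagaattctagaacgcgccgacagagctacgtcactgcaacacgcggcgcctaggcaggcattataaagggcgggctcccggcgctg
Ankrd1 upstream: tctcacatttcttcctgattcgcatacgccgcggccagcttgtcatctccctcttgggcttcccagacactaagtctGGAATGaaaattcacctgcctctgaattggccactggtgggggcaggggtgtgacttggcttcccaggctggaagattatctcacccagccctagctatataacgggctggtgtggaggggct
Amotl2 upstream: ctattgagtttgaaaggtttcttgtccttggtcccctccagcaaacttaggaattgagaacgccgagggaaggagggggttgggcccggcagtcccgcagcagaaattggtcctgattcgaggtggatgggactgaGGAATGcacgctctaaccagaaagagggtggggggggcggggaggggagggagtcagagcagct

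The summits of 3 distal regions, with 150 bases on either side, are shown because the changes described below were largest there for Ctgf, Cyr61 and Tead1. None of the 3 holds the TEAD motif, the AP-1 motif TGANTCA or a CArG box, the motif of the serum response factor, so no letters are in capitals. They lie at chr10:24300408-24300707, plus strand, chr3:145348368-145348667, plus strand, and chr7:119787800-119788099, plus strand (mm9).
Ctgf 14.7 kb upstream: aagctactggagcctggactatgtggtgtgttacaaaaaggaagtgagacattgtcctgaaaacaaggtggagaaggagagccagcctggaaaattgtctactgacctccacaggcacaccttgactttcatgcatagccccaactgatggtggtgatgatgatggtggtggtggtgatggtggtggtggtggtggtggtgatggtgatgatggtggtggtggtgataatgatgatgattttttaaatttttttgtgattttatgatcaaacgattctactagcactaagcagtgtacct
Cyr61 35.6 kb upstream: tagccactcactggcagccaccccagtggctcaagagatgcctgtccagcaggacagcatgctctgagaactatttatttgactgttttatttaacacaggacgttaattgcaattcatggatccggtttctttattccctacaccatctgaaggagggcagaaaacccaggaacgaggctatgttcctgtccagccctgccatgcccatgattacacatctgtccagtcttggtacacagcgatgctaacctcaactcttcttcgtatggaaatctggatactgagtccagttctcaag
Tead1 34.9 kb upstream: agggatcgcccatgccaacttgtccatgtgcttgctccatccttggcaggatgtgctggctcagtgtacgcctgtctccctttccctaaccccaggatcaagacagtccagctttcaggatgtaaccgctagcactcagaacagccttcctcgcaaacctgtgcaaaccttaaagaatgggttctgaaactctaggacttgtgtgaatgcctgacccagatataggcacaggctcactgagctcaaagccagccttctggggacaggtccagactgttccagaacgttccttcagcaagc

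In windows of this size around the summit, the TEAD motif was present in 21 of the 143 distal regions (14.7%) and in 16.6% of 80981 distal regions of all genes. The AP-1 motif was present in 12 (8.39%), against 10.5% of all. The CArG box was present in 6 (4.2%), against 1.42%, and 5 of the 6 were among the 13 distal regions of Ankrd1. Of these Ankrd1 regions, those 15.8 kb downstream and 29.5 kb upstream had a peak in a single library, at 10 and 11 fragments. Of the 11 promoter regions 4 (36.4%) held the TEAD motif, against 13.3% of 8069 promoter regions. These shares are descriptions of the windows and were not tested. Because 5 of the CArG boxes lay around Ankrd1, 2 of its windows are shown with the box in capitals, at chr19:36204080-36204379, plus strand and chr19:36282223-36282522, plus strand (mm9).
Ankrd1 9.9 kb upstream: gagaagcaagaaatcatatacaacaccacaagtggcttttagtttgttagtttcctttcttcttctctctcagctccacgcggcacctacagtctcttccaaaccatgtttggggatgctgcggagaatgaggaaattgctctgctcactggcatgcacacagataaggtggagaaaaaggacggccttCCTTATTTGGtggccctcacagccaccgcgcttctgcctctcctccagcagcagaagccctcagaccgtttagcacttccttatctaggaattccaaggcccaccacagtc
Ankrd1 88.0 kb upstream: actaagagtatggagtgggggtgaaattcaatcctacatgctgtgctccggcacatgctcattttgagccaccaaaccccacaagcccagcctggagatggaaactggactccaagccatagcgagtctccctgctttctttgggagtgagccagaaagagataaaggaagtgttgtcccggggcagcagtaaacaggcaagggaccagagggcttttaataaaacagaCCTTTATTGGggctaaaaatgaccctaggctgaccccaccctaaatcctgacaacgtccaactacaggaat

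The 10 genes differed widely in how many acetylated regions they had. Tead1 had 41 distal and 2 promoter regions, Ctgf 25 and 1, Amotl2 20 and 3, Cyr61 17 and 1, Wwtr1 14 and 1, and Ankrd1 13 and 1. Lats2 had 7 distal regions and Yap1 had 6, and neither had a promoter region. Each merged region was classed by 1 summit, which at their start-site regions lay just inside the gene. In single libraries, a summit fell into a promoter window in 9 of 15 for Lats2 and in 1 for Yap1. Of the 143 regions classed distal, 12 lay within 2500 bp of a start. Lats1 and Tead2 had 1 promoter region each and 0 distal regions. Of the 154 regions 54 had a peak in all 15 libraries (46 distal and 8 promoter), or 35.1%, against 30.2% of all regions, and 27 had a peak in a single library.

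All 10 genes were marked at or near a start site in every library. Within 2500 bp of a start, the highest peak of Wwtr1 stood at the 99.09 to 99.68 percentile of its own library's peaks by pileup, and that of Ankrd1 at 95.11 to 99.09. Amotl2 stood at 91.66 to 98.61, Cyr61 at 89.33 to 96.97, Tead1 at 88.24 to 95.35, Lats1 at 87.04 to 96.59, Lats2 at 85.47 to 95.84 and Yap1 at 77.74 to 93.87. Ctgf (61.2 to 88.82) and Tead2 (39.44 to 72.66) were lowest. The ranges of genes next to each other in this order overlapped. The start-site peak of Wwtr1, the gene for TAZ, was thus among the highest peaks of each library before and after TGF-β, and that of Tead2 stood at a middling level.

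Signal is given below as relative pileup, the number of fragments stacked at the summit divided by the library's median over the 26934 regions that had a peak in all 15 libraries, so that 1 is the median of such regions. The 54 regions of the 10 genes among these 26934 were tested by limma on the log2 scale, with Benjamini-Hochberg adjustment over all 26934 and a threshold of 0.05. The other 100 regions lacked a peak in at least 1 library. They had no test of level in this main fit, since no peak gives no value and is not a signal of 0. In the alternative of a peak in at least 3 libraries, a missing peak was set to the library's lowest pileup before testing. Libraries that share a replicate number deviated together, so a fit with the number as a block was also made, and its adjusted p is named as the blocked one beside a printed change whose call it alters.

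At 4h of TGF-β, 1 of the 54 regions was higher (1.85%, against 3.62% of all regions) and 0 were lower (0.197% of all). With the block 5 were higher, at Ctgf and Tead1, against 11.8% of all, and 0 were lower, against 5.87%. At 24h 6 were higher than at 0h (11.1%, against 10.3% of all) and 1 was lower (1.85%, against 7.85% of all). With the block 9 were higher (17.6% of all) and 9 were lower (20.1% of all). These shares were near those over all regions or below them, and the median log2 change of the 54 at 24h was -0.11, against -0.07 over all regions. The 6 higher regions belonged to Ctgf (4), Cyr61 (1) and Tead1 (1), and the lower one to Tead1.

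With ERKi at 4h, 2 of the 54 regions were lower than at 4h with DMSO (3.70%, against 0.26% of all) and 0 were higher (0.00743% of all). With the block 6 were lower (3.47% of all) and 0 higher (0.847% of all). With ERKi at 24h, 4 were lower than at 24h (7.41%, against 3.98% of all) and 0 were higher (3.53% of all). With the block 7 were higher (15% of all) and 7 lower (13.1% of all). Both lower regions at 4h and all 4 at 24h found without the block belonged to Tead1. The 4 further regions lower at 4h with the block were 1 of Tead1 and 3 of Ankrd1, and in the blocked fit without ERKi 4h replicate 1 the 3 Tead1 regions were lower and 0 of the Ankrd1 regions (2.34% of all regions called in either direction). Between ERKi 24h and 0h, which differ in TGF-β and inhibitor at once, 5 regions were higher (9.26%, against 11.2% of all) and 4 lower (7.41%, against 9.13%), and with the block 8 were higher (20.7% of all) and 20 lower (22% of all). Of the 19 regions called in this contrast with the block alone, 3 were higher, at Ctgf (2) and Cyr61 (1), and 16 lower, at Tead1 (6), Amotl2 (3), Ankrd1 (3), Ctgf (2) and Cyr61 (2). The 24h libraries enter both the TGF-β contrast and the ERKi contrast, so the changes in these contrasts are not independent and are given side by side below. Of the 23 calls made without the block in the 5 contrasts, 13 were lost without scaling the libraries, 17 when -log10 p replaced pileup and 23 as fold enrichment over the local background.

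**Figure D1:**
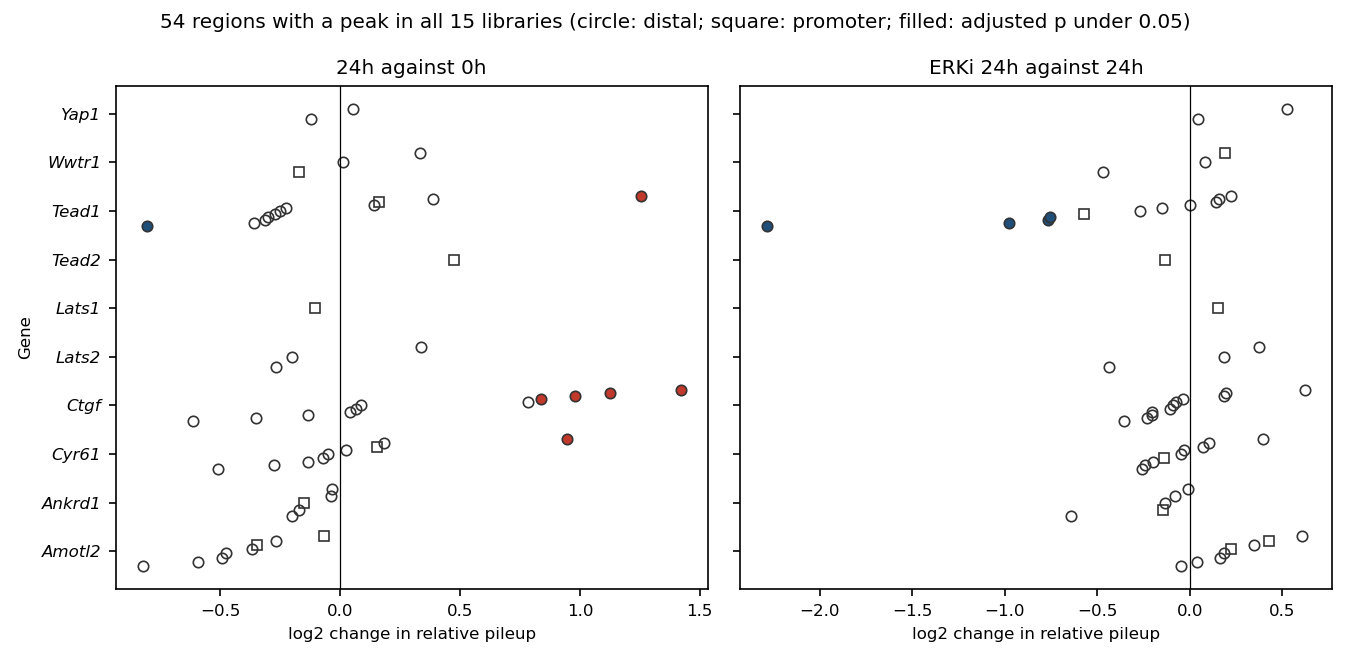
log2 change in relative pileup (x axis) at the 54 regions with a peak in all 15 libraries, by gene (y axis), for 24h against 0h and for ERKi 24h against 24h; circles are distal and squares promoter regions, filled where the adjusted p was under 0.05. The 6 filled points on the higher side at 24h belong to Ctgf, Cyr61 and Tead1, and the 4 filled points on the lower side with ERKi all belong to Tead1.

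Around Yap1, no contrast passed without the block at either tested region. Relative pileup at the start-site region, 431 bp downstream (chr9:8002836-8005389, exon), was 1.52, 1.56 and 1.69 at 0h, 1.57, 1.52 and 1.43 after 4h of TGF-β, 1.65, 1.50 and 1.81 after 24h, and with ERKi 1.39, 1.18 and 1.77 at 4h and 1.63, 1.46 and 2.07 at 24h. The 5 groups overlapped, and the log2 change was 0.05 ± 0.17 (SE, adjusted p = 0.897) at 24h, with an interval of ±2 SE from -0.28 to 0.39, and 0.05 ± 0.17 (SE, adjusted p = 0.932) for ERKi 24h against 24h. A region 36.2 kb downstream, in an intron (chr9:7965234-7966521), differed by 0.53 ± 0.27 (SE, adjusted p = 0.298) between ERKi 24h and 24h, with a blocked adjusted p of 0.0227.

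Wwtr1 kept its strong promoter and gained peaks inside the gene. The promoter region 302 bp upstream (chr3:57379871-57380973) had a relative pileup of 3.44, 4.03 and 3.92 at 0h, 3.69, 3.70 and 4.44 after 4h of TGF-β, 3.33, 3.27 and 3.49 after 24h, and with ERKi 3.38, 3.71 and 3.59 at 4h and 4.16, 3.38 and 4.04 at 24h. This region had the highest mean of all tested regions of the 10 genes, the groups overlapped, and the log2 change was -0.17 ± 0.12 (SE, adjusted p = 0.411) at 24h and 0.19 ± 0.12 (SE, adjusted p = 0.423) with ERKi at 24h. In an intron 25.2 kb downstream (chr3:57353791-57354852), 0 of 3 libraries had a peak at 0h and 3 of 3 in each of the other groups. The values there were 0.883, 0.642 and 0.724 in 4h libraries, 1.56, 1.33 and 1.47 in 24h libraries, 0.441, 0.646 and 0.613 in ERKi 4h libraries and 1.06, 0.921 and 0.971 in ERKi 24h libraries. All 24h libraries were thus above all ERKi 24h libraries and above all 4h libraries, with no test of level in the main fit, since 3 libraries gave no value.

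A neighbouring region 24.5 kb downstream (chr3:57354977-57355515) had a peak in 0 libraries at 0h, 2 at 4h, 3 at 24h, 1 at ERKi 4h and 2 at ERKi 24h, and one 18.0 kb downstream (chr3:57361581-57362006) in 0, 0, 2, 0 and 3. At 65.6 kb downstream, pileup before scaling was 18 fragments in 0h replicate 1, with no peak in the other 0h libraries. It was 201, 90 and 208 at 24h and 132, 76 and 146 at ERKi 24h. At 71.4 kb downstream it was 20 in 0h replicate 1 alone at 0h, and 110, 47 and 104 at 24h. There it was 17 and 22 in ERKi 24h replicates 2 and 3, with no peak in replicate 1 or at ERKi 4h. The intronic region 19.8 kb downstream (chr3:57357944-57360229) had a peak in every library, with 0.982, 0.970 and 1.11 at 0h, 0.957, 0.881 and 1.11 after 4h of TGF-β, 1.14, 1.26 and 1.47 after 24h, and with ERKi 0.798, 0.785 and 0.775 at 4h and 0.899, 1.03 and 0.857 at 24h. The 24h libraries were the highest and separate from both 0h and ERKi 24h. The log2 change was 0.33 ± 0.17 (SE, adjusted p = 0.21) at 24h, and -0.47 ± 0.17 (SE, adjusted p = 0.108) with ERKi, with a blocked adjusted p of 0.00931.

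The number of distal Wwtr1 peaks per library, in the order of replicates 1, 2 and 3, was 5, 5 and 4 at 0h, 7, 8 and 10 after 4h of TGF-β, 16, 7 and 16 after 24h, and with ERKi 8, 8 and 7 at 4h and 10, 7 and 9 at 24h. No treated library fell as low as an untreated one. The mean was higher than at 0h by 3.67 peaks at 4h, by 8.33 at 24h and by 4 at ERKi 24h (two-sided exact permutation test, p = 0.1 for each, the smallest that 3 against 3 can give, and an exact sign-flip p of 0.25 over the replicate numbers). Counts without overlap on the higher side were found for 4.47% of all genes with a distal peak at 4h, 12.7% at 24h and 11.9% at ERKi 24h against 0h. With peaks of -log10 q of at least 10 alone, the Wwtr1 differences shrank to 1.33 at 4h (exact permutation p = 0.4), 3.33 at 24h and 1.67 at ERKi 24h (p = 0.2 for both), and the groups overlapped. ERKi 24h was 4.33 peaks below 24h, but the groups overlapped (exact permutation p = 0.4), and 24h replicate 2 had as few peaks as the lowest inhibited library.

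Among the 8 genes with distal peaks, Cyr61 also had counts above those at 0h without overlap, with 10, 11 and 10 peaks at 0h against 12, 14 and 16 at 24h and 17, 12 and 15 at ERKi 24h (differences 3.67 and 4.33, exact permutation p = 0.1 for both). With -log10 q of at least 10 the Cyr61 differences were 0 at 24h (exact permutation p = 1) and 1.33 at ERKi 24h (p = 0.3), both with overlap, and with promoters taken as 2500 bp around a start the counts at 24h overlapped those at 0h (difference 2.67, p = 0.2). Its counts at 4h (11, 11 and 14) and ERKi 4h (12, 13 and 14) overlapped. For these 8 genes, 0 counts were lower without overlap at 4h (1.22% of all genes), 24h (4.29%) or ERKi 24h (3.38%) against 0h. With the inhibitor, 0 of the 8 separated from the matched TGF-β group, against 1.49% of all genes higher and 1.08% lower at 4h, and 4.19% higher and 3.11% lower at 24h.

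**Figure D2:**
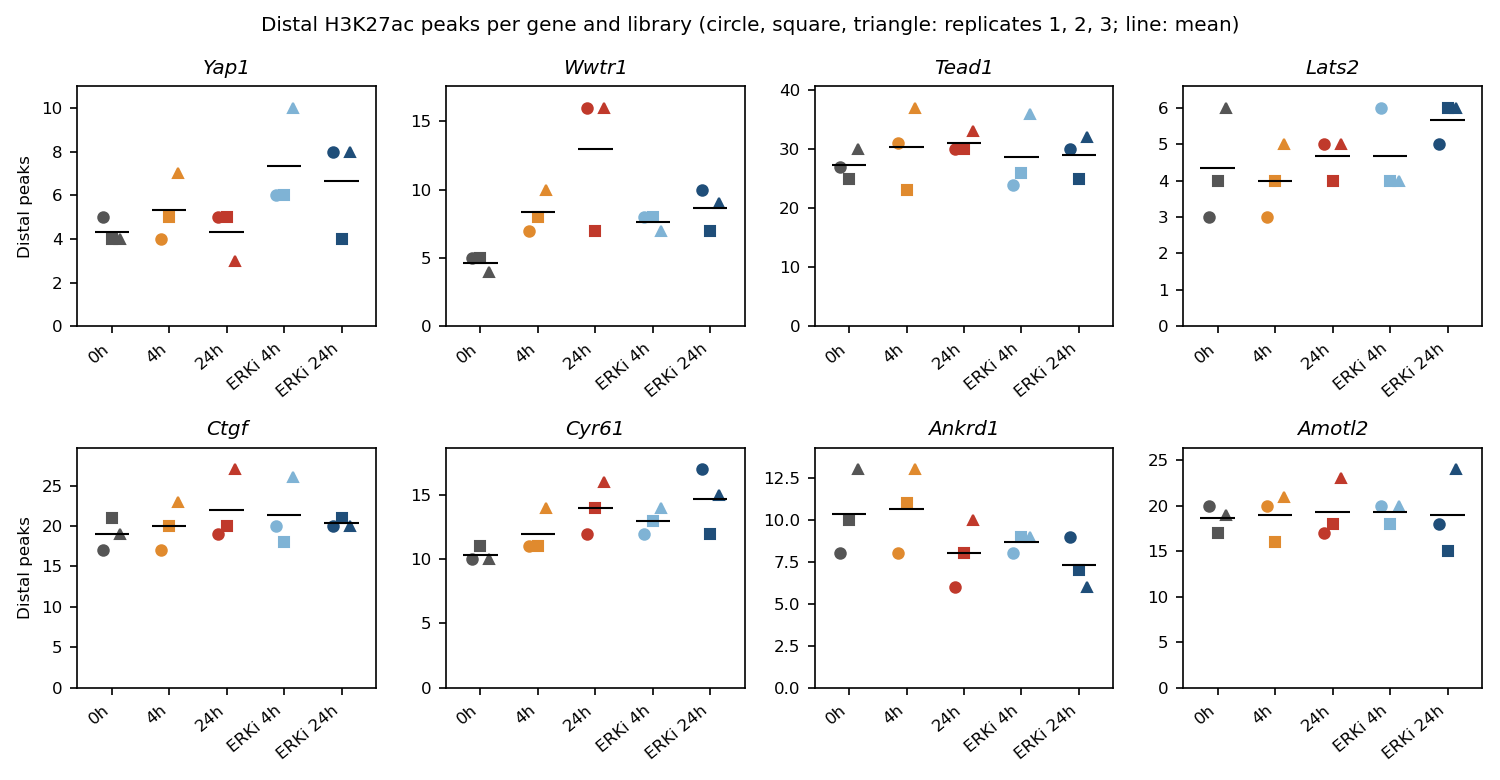
Number of distal H3K27ac peaks (y axis) of the 8 genes that had any, in the 5 groups (x axis); symbols are the 3 replicate libraries and the line their mean. The treated libraries of Wwtr1 all lie above its 0h libraries, and those of most other genes overlap.

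Among the tested regions, the largest changes with the inhibitor were at Tead1, which encodes a DNA-binding partner of YAP and TAZ. Regions without a peak in every library, such as Wwtr1 71.4 kb downstream, were outside this comparison. The Tead1 region 34.9 kb upstream, between genes (chr7:119787485-119789825), was higher at 24h of TGF-β and was lower with ERKi than without it. Relative pileup was 0.336, 0.545 and 0.813 at 0h, 0.755, 1.00 and 1.29 after 4h of TGF-β, 1.27, 0.843 and 1.89 after 24h, and with ERKi 0.274, 0.339 and 0.275 at 4h and 0.193, 0.365 and 0.248 at 24h. Every 24h library was above every 0h library, and every inhibited library was below every 4h and 24h library. The log2 change was 1.25 ± 0.34 (SE, adjusted p = 0.0151) at 24h against 0h, -1.75 ± 0.34 (SE, adjusted p = 0.034) for ERKi 4h against 4h, -2.29 ± 0.34 (SE, adjusted p = 0.000704) for ERKi 24h against 24h and -1.03 ± 0.34 (SE, adjusted p = 0.0398) for ERKi 24h against 0h. The rise at 4h, 0.90 ± 0.34 (SE), passed only with the block (adjusted p = 0.203 without it and 0.00856 with it).

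The ERKi call at 24h held in all 15 fits without 1 library. The call for ERKi 4h against 4h was lost without any 1 of the 6 libraries compared, and also without 0h replicate 2 or 24h replicate 1. Without ERKi 4h replicate 1 the log2 change was -1.70 (adjusted p = 0.223), and over all libraries left out it ran from -1.95 to -1.56. The rise at 24h was no longer called without 0h replicate 1 (0.92, adjusted p = 0.101) or 24h replicate 3 (0.96, adjusted p = 0.0829), nor was ERKi 24h against 0h without 0h replicate 2 or 3 or ERKi 24h replicate 1 or 3 (highest adjusted p = 0.194). The mean local background at the region, the level the peak caller expected there, whose source is not given in the sources used here, moved in the same direction, from 0.611 at 0h to 1.45 at 24h and 0.270 at ERKi 24h in units of the library median. The ratio of pileup to that background changed by 0.09 at 24h and by -0.19 with ERKi at 24h on the log2 scale, neither past the threshold.

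Of the other Tead1 regions, 3 were lower with ERKi at 24h. At 64.6 kb upstream (chr7:119757107-119759357, intergenic) relative pileup was 0.645, 0.667 and 0.987 at 0h, 0.670, 0.687 and 1.06 after 4h of TGF-β, 0.755, 0.686 and 1.10 after 24h, and with ERKi 0.274, 0.446 and 0.450 at 4h and 0.303, 0.508 and 0.486 at 24h. The 9 libraries without inhibitor were all above the 6 with it, and the log2 change was -0.98 ± 0.29 (SE, adjusted p = 0.0486) at 24h and -1.05 ± 0.29 (SE, adjusted p = 0.216), blocked 0.000515 (0.00987 without ERKi 4h replicate 1), at 4h. At 5.8 kb downstream, in an intron (chr7:119839945-119841732), it was 0.918, 0.985 and 1.24 at 0h, 0.798, 1.10 and 1.32 after 4h of TGF-β, 1.22, 1.50 and 1.36 after 24h, and with ERKi 0.417, 0.523 and 0.425 at 4h and 0.679, 0.825 and 0.924 at 24h. The ERKi 4h libraries were the lowest of all, with a log2 change of -1.22 ± 0.21 (SE, adjusted p = 0.0194) at 4h and -0.76 ± 0.21 (SE, adjusted p = 0.0373) at 24h. Without ERKi 4h replicate 1 the change at 4h was -1.16 (adjusted p = 0.166), and the call was also lost without ERKi 4h replicate 3 and without 4h replicate 2 or 3.

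At 2.7 kb upstream of the nearest start (chr7:119831639-119832882), inside an intron of the longer transcripts, relative pileup was 0.709, 0.849 and 0.773 at 0h, 0.638, 0.597 and 0.609 after 4h of TGF-β, 0.500, 0.700 and 0.626 after 24h, and with ERKi 0.548, 0.492 and 0.400 at 4h and 0.312, 0.429 and 0.333 at 24h. The ERKi 24h libraries were below all 0h and 24h libraries, with log2 changes of -0.77 ± 0.21 (SE, adjusted p = 0.0353) against 24h and -1.13 ± 0.21 (SE, adjusted p = 0.0011) against 0h. Distances for Tead1 are to the nearest of its annotated starts, which lie far apart in the gene. The intronic region 72.3 kb downstream (chr7:119974854-119975786) was the one that fell at 24h, with 1.15, 1.18 and 1.51 at 0h, 1.10, 1.15 and 1.47 after 4h of TGF-β, 0.723, 0.657 and 0.807 after 24h, and with ERKi 0.964, 1.02 and 1.39 at 4h and 0.688, 0.794 and 0.943 at 24h. The 24h libraries were below all 0h libraries (log2 change -0.81 ± 0.20 (SE, adjusted p = 0.00818)), as were those at ERKi 24h (-0.67 ± 0.20 (SE, adjusted p = 0.0244)), and the ERKi 24h and 24h libraries overlapped (0.14 ± 0.20 (SE, adjusted p = 0.783)). The call for ERKi 24h against 0h was lost without 0h replicate 3 or ERKi 24h replicate 1 or 2 (highest adjusted p = 0.114).

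With regions merged within 1000 bp, neither call at 2.7 kb upstream held, with -0.57 (adjusted p = 0.186) against 24h and -0.56 (adjusted p = 0.129) against 0h. At 5.8 kb downstream the rise at 24h against 0h, 0.39 ± 0.21 (SE, adjusted p = 0.259), passed only with the block (adjusted p = 0.0381). These last ERKi calls at 24h rested on few libraries. That at 5.8 kb downstream was lost without any 1 of the 6 libraries compared (highest adjusted p = 0.144), and that at 2.7 kb upstream without 24h replicate 2 or 3 or ERKi 24h replicate 1 or 3 (highest adjusted p = 0.125). That at 64.6 kb upstream held in 4 of 15 fits without 1 library, those without 0h replicate 3, 4h replicate 3 or ERKi 4h replicate 1 or 3, and its adjusted p was highest, 0.199, without ERKi 24h replicate 1. As fold enrichment over the local background, the change with ERKi at 24h was 0.44 at 5.8 kb downstream and 0.11 at 64.6 kb upstream, opposite in sign and not past the threshold.

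The start-site regions of Tead1 passed in none of the 5 contrasts without the block. At 563 bp downstream the log2 change was -0.31 ± 0.13 (SE, adjusted p = 0.101) at 24h, blocked 0.0152, and 0.00 ± 0.13 (SE, adjusted p = 0.996) with ERKi. At the promoter region 655 bp upstream it was -0.57 ± 0.26 (SE, adjusted p = 0.211) with ERKi at 24h, with a blocked adjusted p of 0.00675. Tead2, the other TEAD gene, had its sole region at the promoter, 146 bp downstream (chr7:52471017-52472488, exon), with 0.827, 0.788 and 0.440 at 0h, 0.840, 0.806 and 0.563 after 4h of TGF-β, 0.968, 0.914 and 0.868 after 24h, and with ERKi 0.655, 0.908 and 0.762 at 4h and 0.936, 1.02 and 0.610 at 24h. The 24h libraries were above all 0h libraries, by 0.47 ± 0.26 (SE, adjusted p = 0.261) on the log2 scale, which passed only with the block (adjusted p = 0.0305), and the change with ERKi was -0.14 ± 0.26 (SE, adjusted p = 0.856).

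**Figure D3:**
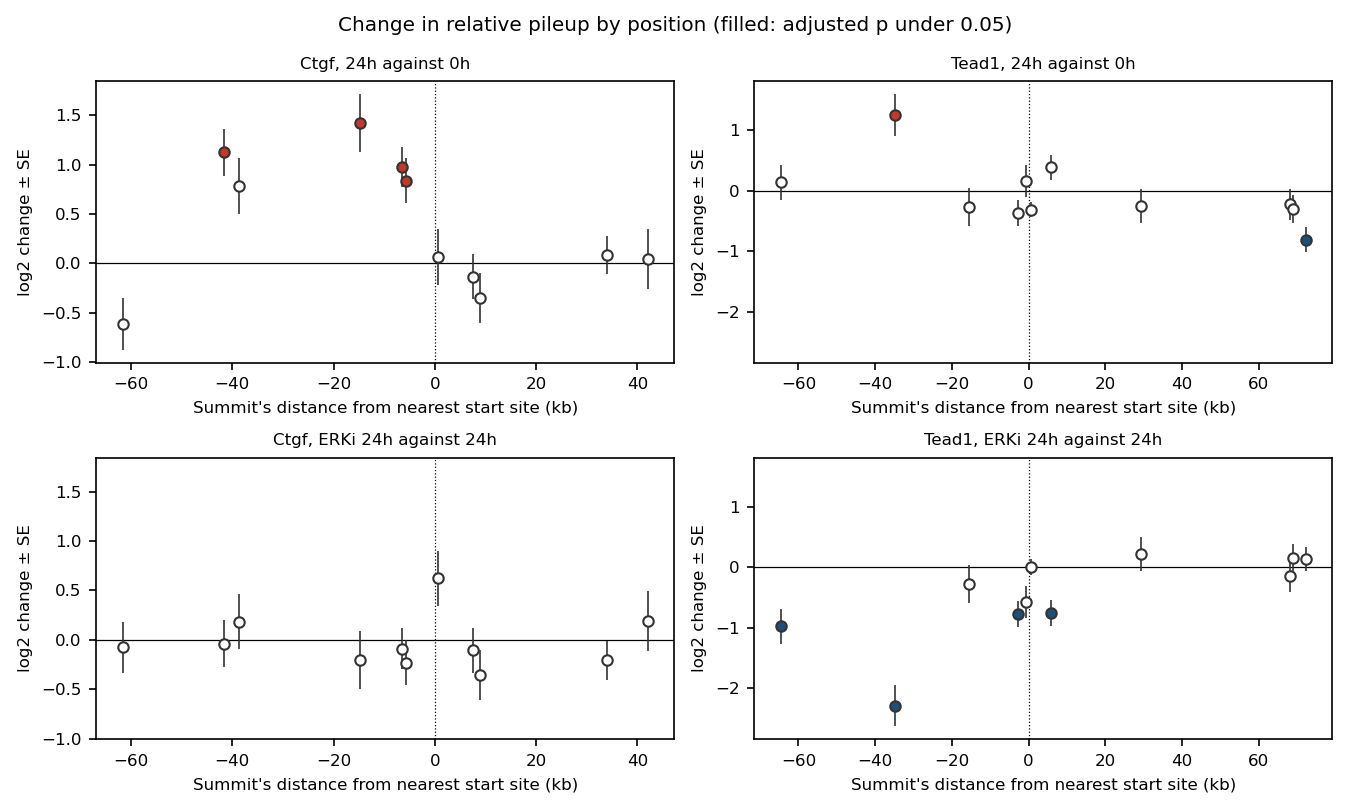
log2 change in relative pileup with its SE (y axis) against the distance of the summit from the nearest start site in kb (x axis, upstream negative), for the tested regions of Ctgf and Tead1; filled points had an adjusted p under 0.05. At Ctgf 4 upstream regions were higher at 24h and 0 regions passed the threshold with ERKi without the block. At Tead1 the region 34.9 kb upstream was higher at 24h and was among 4 that were lower with ERKi.

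No region of the Hippo kinase genes passed in any of the 5 contrasts without the block. Lats1 had its sole region at the start, 115 bp downstream (chr10:7400154-7401980, exon), with 2.11, 2.20 and 1.89 at 0h, 1.84, 2.30 and 1.53 after 4h of TGF-β, 2.02, 1.84 and 1.89 after 24h, and with ERKi 2.01, 2.26 and 1.70 at 4h and 2.47, 1.95 and 2.01 at 24h. The groups overlapped, with log2 changes of -0.11 ± 0.16 (SE, adjusted p = 0.757) at 24h and 0.15 ± 0.16 (SE, adjusted p = 0.682) with ERKi at 24h. The Lats2 start-site region 202 bp downstream (chr14:58363713-58365713, exon) had 1.78, 2.05 and 1.56 at 0h, 1.73, 1.81 and 1.94 after 4h of TGF-β, 1.68, 1.56 and 1.43 after 24h, and with ERKi 1.65, 1.72 and 1.61 at 4h and 1.90, 1.84 and 2.32 at 24h. All ERKi 24h libraries were above all 24h libraries, with a change of 0.37 ± 0.14 (SE, adjusted p = 0.129) that passed only with the block (adjusted p = 0.0168). At 2.0 kb upstream (chr14:58378633-58380445) the change with ERKi at 24h was -0.44 ± 0.26 (SE, adjusted p = 0.369), and at 4.0 kb downstream (chr14:58348811-58350283, intron) the change at 24h was -0.27 ± 0.19 (SE, adjusted p = 0.411). A region 5.6 kb upstream of a Lats2 start (chr14:58324151-58324605, intron) had a low peak, at 0.220, 0.222 and 0.191 in ERKi 24h libraries, and no peak in the other 12.

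Ctgf, the target gene with the most changes, gained H3K27ac at tested regions upstream of its start at 24h. None of these tested regions differed past the threshold between ERKi 24h and 24h. At 14.7 kb upstream (chr10:24300027-24301010, intergenic) relative pileup was 0.218, 0.455 and 0.387 at 0h, 0.425, 0.597 and 0.736 after 4h of TGF-β, 0.915, 0.786 and 1.02 after 24h, and with ERKi 0.405, 0.646 and 0.650 at 4h and 0.817, 0.651 and 0.905 at 24h. Every 24h and every ERKi 24h library was above every 0h library. The log2 change was 1.42 ± 0.29 (SE, adjusted p = 0.00204) at 24h, a 2.68-fold difference, 1.22 ± 0.29 (SE, adjusted p = 0.00592) for ERKi 24h against 0h and -0.20 ± 0.29 (SE, adjusted p = 0.783) for ERKi 24h against 24h. The interval of ±2 SE of that last difference was -0.79 to 0.38, so a moderate fall or rise with the inhibitor was not detectable with 3 libraries a group. A nearby region 13.7 kb upstream had no peak in 0h replicate 1 and so no test in the main fit. Its pileup before scaling was 25 and 34 fragments at 0h, 52, 37 and 64 at 4h and 75, 45 and 80 at 24h. With ERKi it was 25, 20 and 35 at 4h, below all 4h libraries, and 55, 24 and 71 at 24h, overlapping those at 24h.

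At 41.6 kb upstream (chr10:24273421-24274816, intergenic) relative pileup was 0.264, 0.303 and 0.347 at 0h, 0.511, 0.418 and 0.437 after 4h of TGF-β, 0.723, 0.514 and 0.771 after 24h, and with ERKi 0.488, 0.385 and 0.388 at 4h and 0.661, 0.508 and 0.790 at 24h. The 4h and 24h libraries were all above the 0h libraries, by 1.12 ± 0.23 (SE, adjusted p = 0.00234) at 24h, and ERKi 24h differed from 24h by -0.04 ± 0.23 (SE, adjusted p = 0.962), with an interval from -0.51 to 0.43. At 6.4 kb upstream (chr10:24308573-24309276, intergenic) it was 0.664, 0.803 and 0.920 at 0h, 1.34, 1.46 and 1.47 after 4h of TGF-β, 1.82, 1.17 and 1.76 after 24h, and with ERKi 1.04, 1.22 and 1.32 at 4h and 1.52, 1.14 and 1.79 at 24h. This was the region called at 4h, with a log2 change of 0.85 ± 0.20 (SE, adjusted p = 0.0225) then and 0.98 ± 0.20 (SE, adjusted p = 0.00239) at 24h, and ERKi 24h differed from 24h by -0.09 ± 0.20 (SE, adjusted p = 0.885). The 4h call was lost in 5 of the 6 fits that left out a 0h or 4h library, the exception being the one without 0h replicate 3.

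The adjoining region 5.7 kb upstream (chr10:24309348-24310933, intergenic) had 0.636, 0.788 and 1.07 at 0h, 0.947, 1.16 and 1.28 after 4h of TGF-β, 1.50, 1.13 and 1.81 after 24h, and with ERKi 0.893, 1.00 and 1.24 at 4h and 1.30, 1.03 and 1.41 at 24h. The 24h libraries were above all 0h libraries (log2 change 0.84 ± 0.23 (SE, adjusted p = 0.0134)), and the change with ERKi was -0.23 ± 0.23 (SE, adjusted p = 0.653). The 24h call was lost without 0h replicate 1 or 24h replicate 1 or 3 (highest adjusted p = 0.083). At 38.8 kb upstream (chr10:24276072-24277142, intergenic) the change at 24h was 0.78 ± 0.28 (SE, adjusted p = 0.0623), blocked 0.00535, and that of ERKi 24h against 0h was 0.97 ± 0.28 (SE, adjusted p = 0.0201), a call lost without 0h replicate 1 or 3 or ERKi 24h replicate 1 or 3 (highest adjusted p = 0.1). At 4h, 3 further Ctgf regions passed with the block, those 14.7 kb (adjusted p = 0.00793), 41.6 kb (0.026) and 5.7 kb upstream (0.0217). The farthest tested region, 61.6 kb upstream, moved the other way, by -0.61 ± 0.26 (SE, adjusted p = 0.122) at 24h, blocked 0.00665. None of the 4 tested regions from 7.5 to 42.0 kb downstream of the start passed at 24h.

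The local background at the Ctgf regions moved with them. The mean local background went from 0.374 at 0h to 1.26 at 24h and 0.799 at ERKi 24h for the region 14.7 kb upstream, and from 1.71 to 3.61 and 3.13 for that 6.4 kb upstream. As fold enrichment over this background, the log2 change at 24h was -0.20 at 14.7 kb, -0.08 at 6.4 kb, -0.16 at 5.7 kb and 0.04 at 41.6 kb, so that the rise held for the fragments stacked at the summit and not for the height of the summit over its surroundings. What the background stands for was not tested.

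At the Ctgf start itself the order of the groups was another one. The region 611 bp downstream (chr10:24315419-24317887, exon) had 1.41, 0.651 and 0.947 at 0h, 1.15, 0.776 and 1.29 after 4h of TGF-β, 1.27, 0.671 and 1.17 after 24h, and with ERKi 1.48, 1.08 and 1.54 at 4h and 1.57, 1.41 and 1.64 at 24h. All ERKi 24h libraries were above all 24h libraries, and the 0h and 24h libraries overlapped. The log2 change was 0.06 ± 0.28 (SE, adjusted p = 0.926) at 24h and 0.62 ± 0.28 (SE, adjusted p = 0.208) for ERKi 24h against 24h, which passed only with the block (adjusted p = 0.00206). The promoter region 564 bp upstream (chr10:24314505-24314984, intergenic) had a peak in 1 library at 0h (0.818 in replicate 2), in all at 4h (1.02, 0.925 and 1.13) and 24h (1.17, 0.943 and 1.18), in 1 at ERKi 4h (1.14 in replicate 2) and in 0 at ERKi 24h. The percentile of the promoter peak by pileup, with 0 for no peak, averaged 20.4 at 0h, 71.4 at 4h, 75.2 at 24h and 0 at ERKi 24h (exact permutation p = 0.1 for 24h against 0h and for ERKi 24h against 24h). This pattern rested on where the summit fell, since with a window of 2500 bp around the start ERKi 24h was higher than 24h, by 10.5 percentile points.

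**Figure D4:**
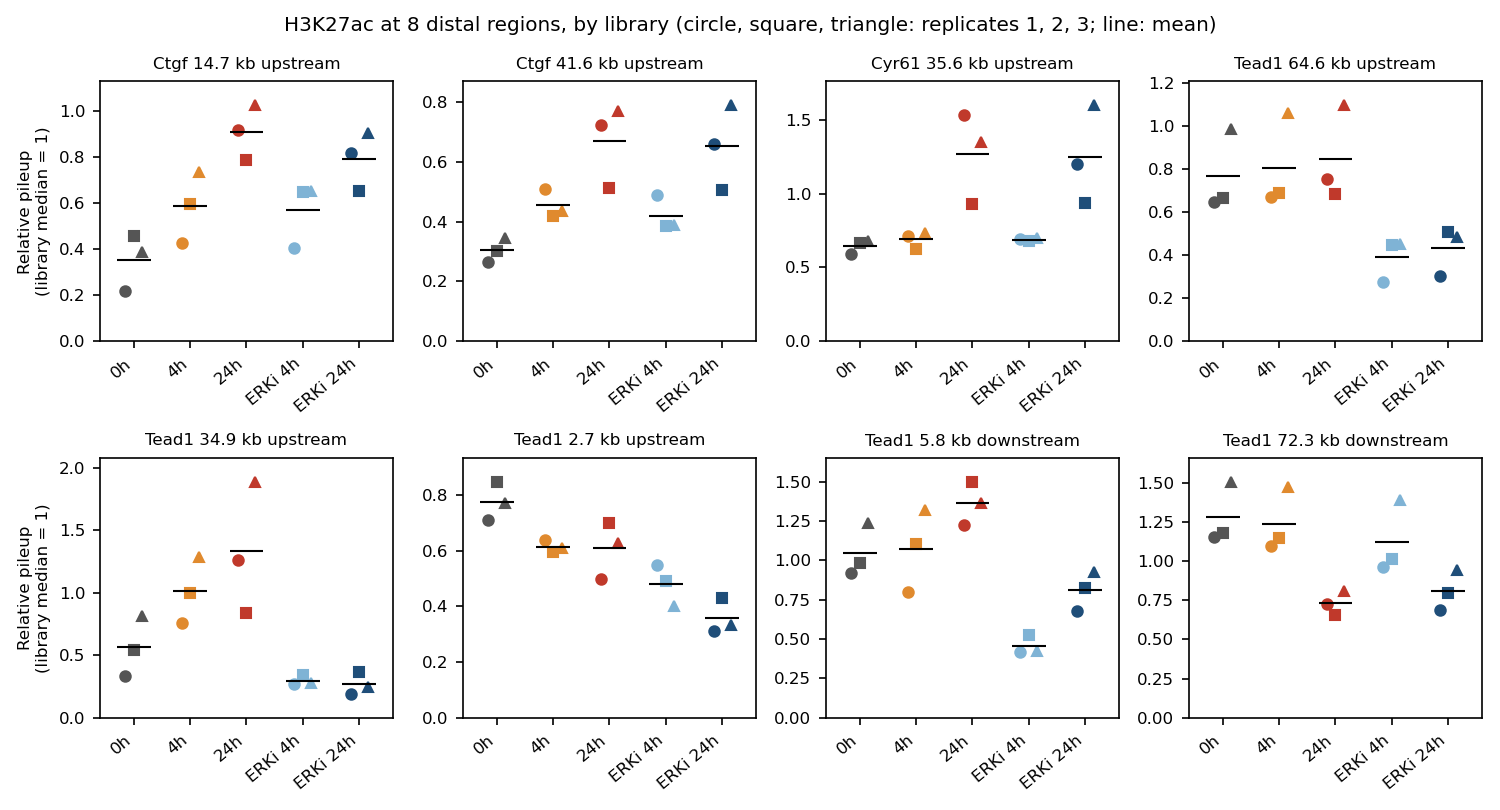
Relative pileup (y axis, library median = 1) at 8 distal regions of Ctgf, Cyr61 and Tead1 in the 5 groups (x axis); symbols are the 3 replicate libraries and lines their means. The Ctgf and Cyr61 regions are high at both 24h and ERKi 24h, whereas the Tead1 regions 64.6 and 34.9 kb upstream are low in both inhibitor groups.

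Cyr61, the second matricellular target, had 1 region that rose. At 35.6 kb upstream (chr3:145347214-145349047, intergenic) relative pileup was 0.591, 0.667 and 0.680 at 0h, 0.713, 0.627 and 0.736 after 4h of TGF-β, 1.53, 0.929 and 1.35 after 24h, and with ERKi 0.691, 0.677 and 0.700 at 4h and 1.20, 0.936 and 1.60 at 24h. The 0h, 4h and ERKi 4h libraries all lay below the 24h and ERKi 24h libraries. The log2 change was 0.95 ± 0.22 (SE, adjusted p = 0.00514) at 24h, 0.92 ± 0.22 (SE, adjusted p = 0.00608) for ERKi 24h against 0h and -0.03 ± 0.22 (SE, adjusted p = 0.966) for ERKi 24h against 24h, with an interval of -0.47 to 0.41. The local background went from 0.512 at 0h to 1.18 at 24h, and fold enrichment changed by -0.12 at 24h on the log2 scale.

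The Cyr61 region 16.6 kb downstream of the start (chr3:145296062-145297482, intergenic) changed by -0.51 ± 0.23 (SE, adjusted p = 0.155) at 24h, blocked 0.00135. Just inside the gene, 434 bp downstream (chr3:145311283-145312910, intron), relative pileup was 2.01, 1.80 and 1.73 at 0h, 2.19, 1.85 and 1.91 after 4h of TGF-β, 2.01, 1.71 and 1.64 after 24h, and with ERKi 2.02, 2.15 and 2.23 at 4h and 2.54, 2.32 and 2.19 at 24h. The ERKi 24h libraries were all above the 24h libraries, by 0.40 ± 0.13 (SE, adjusted p = 0.0761), which passed only with the block (adjusted p = 0.00331). A region 52.6 kb upstream (chr3:145365440-145365774, intergenic) had a peak in 0 libraries at 0h, 3 at 4h, 3 at 24h, 0 at ERKi 4h and 1 at ERKi 24h. At 53.8 kb upstream the change with ERKi was -0.24 ± 0.20 (SE, adjusted p = 0.576).

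Ankrd1, a target gene with strongly marked regions within 10 kb upstream, did not pass at any region at 24h against 0h. At 8.1 kb upstream (chr19:36201729-36202725, intergenic) relative pileup was 1.87, 2.02 and 2.80 at 0h, 2.17, 1.72 and 2.80 after 4h of TGF-β, 1.82, 2.23 and 2.41 after 24h, and with ERKi 1.14, 1.63 and 2.14 at 4h and 1.13, 1.38 and 1.65 at 24h. All ERKi 24h libraries were below all 0h and 24h libraries, with a log2 change of -0.68 ± 0.23 (SE, adjusted p = 0.0451) against 0h and -0.64 ± 0.23 (SE, adjusted p = 0.105) against 24h, blocked 0.00025. The call against 0h held in 9 of 15 fits without 1 library and was lost without 0h replicate 2 or 3, 4h replicate 1, ERKi 4h replicate 2 or ERKi 24h replicate 1 or 2 (highest adjusted p = 0.194). It was also lost with quantile normalization (-0.65, adjusted p = 0.0624), with a peak in at least 3 libraries (adjusted p = 0.0562) and with regions merged within 1000 bp, where the change was -0.27 (adjusted p = 0.123). At 9.9 kb upstream (chr19:36203970-36205172), the window shown above with a CArG box, it was 3.07, 3.32 and 3.13 at 0h, 2.52, 2.75 and 2.64 after 4h of TGF-β, 2.68, 2.80 and 2.81 after 24h, and with ERKi 1.76, 2.08 and 2.40 at 4h and 2.48, 2.22 and 2.90 at 24h. The changes there were -0.20 ± 0.13 (SE, adjusted p = 0.369) at 24h and -0.13 ± 0.13 (SE, adjusted p = 0.659) for ERKi 24h against 24h, and -0.35 ± 0.13 (SE, adjusted p = 0.6) for ERKi 4h against 4h, blocked 0.0427. At 9.3 kb upstream the change at 24h was -0.17 ± 0.12 (SE, adjusted p = 0.403). The 8.1 and 9.3 kb regions were also lower at ERKi 4h than at 4h with the block alone (blocked adjusted p = 0.0261 and 0.0424), and without ERKi 4h replicate 1 the blocked adjusted p was 0.254, 0.174 and 0.29 at 8.1, 9.3 and 9.9 kb.

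Far from the Ankrd1 start, 2 regions differed by presence. At 88.0 kb upstream (chr19:36281548-36283412, intergenic), the second window shown with a CArG box, 0 of 3 libraries had a peak at 0h, and the values were 0.255, 0.269 and 0.207 in 4h libraries, 0.979, 0.414 and 1.06 in 24h libraries, 0.167, 0.231 and 0.175 in ERKi 4h libraries and 0.495, 0.365 and 0.295 in ERKi 24h libraries. All 24h values were above all 4h values, and those at 24h and ERKi 24h overlapped. At 58.3 kb upstream (chr19:36251538-36253078, intergenic) a peak was present in 3 libraries at 0h, 4h and ERKi 4h each, in 0 at 24h and in 2 at ERKi 24h, at no more than 0.364.

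Amotl2 had lower values at 24h along a stretch downstream of the gene, which passed only with the block. At 26.3 kb downstream of the start (chr9:102648458-102650849, intergenic) relative pileup was 0.609, 0.545 and 0.707 at 0h, 0.511, 0.418 and 0.839 after 4h of TGF-β, 0.255, 0.371 and 0.446 after 24h, and with ERKi 0.548, 0.554 and 0.713 at 4h and 0.349, 0.556 and 0.771 at 24h. The 24h libraries were below all 0h libraries, by -0.82 ± 0.31 (SE, adjusted p = 0.0751), blocked 0.00113, and ERKi 24h was 0.61 ± 0.31 (SE, adjusted p = 0.283) above 24h, blocked 0.0188. The regions 16.3, 43.1, 46.9 and 50.7 kb downstream had log2 changes of -0.49, -0.37, -0.48 and -0.59 at 24h, each lower in 3 of 3 replicate numbers, with blocked adjusted p from 0.00117 to 0.00517. As fold enrichment the sign turned at 43.1, 46.9 and 50.7 kb, to 0.0471, 0.0514 and 0.0464, and the mean local background fell as well, from 5.23 at 0h to 3.88 at 24h for the region 43.1 kb downstream. There ERKi 24h was 0.35 ± 0.22 (SE, adjusted p = 0.426) above 24h, blocked 0.0115. The promoter region 105 bp downstream changed by -0.35 ± 0.22 (SE, adjusted p = 0.327) at 24h and 0.43 ± 0.22 (SE, adjusted p = 0.274) with ERKi, blocked 0.0225. At 43.5 and 42.7 kb upstream (chr9:102575019-102575906 and chr9:102576020-102576572) peaks were present in 0 libraries at 0h, 4h and ERKi 4h, in 3 at 24h and in 2 at ERKi 24h.

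Across all 10 genes, a peak in 3 of 3 libraries of one group and 0 of 3 of the other was rare. Of the regions with a peak in either group, 4 of 122 were gained in this sense at 4h against 0h (1.65% of all regions) and 0 lost (0.565%), and 6 of 136 were gained at 24h (5.98%) and 1 lost (2.52%). With ERKi at 4h, 0 of 117 were gained against 4h (0.316%) and 3 lost (0.449%), those of Cyr61 52.6 kb upstream and of Tead1 4.4 and 71.3 kb downstream. With ERKi at 24h, 1 of 135 was gained against 24h (1.73%) and 2 lost (1.41%), those of Ctgf 564 bp upstream and of Tead1 12.8 kb downstream. Between ERKi 24h and 0h 4 of 128 were gained (5.24%) and 2 lost (2.15%).

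The 3 regions lost with ERKi at 4h were the same without ERKi 4h replicate 1 (3 of 115, against 0.658% of all regions). Of these, Tead1 71.3 kb downstream (chr7:119974240-119974814, intron) was called at 0.864, 0.924 and 1.20 in 0h libraries and 0.745, 0.702 and 0.828 in 4h libraries, 2 libraries with a peak at 24h and 0 in either inhibitor group. It adjoins the region 72.3 kb downstream described above, which had a peak in all 15 libraries. The absence thus concerns a separate peak and does not mean that the stretch lost the mark. The regions of Tead1 4.4 kb (chr7:119907018-119907717, intron) and 12.8 kb downstream (chr7:119915492-119916052, intron) were low wherever they were called, from 0.138 to 0.514.

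**Figure D5:**
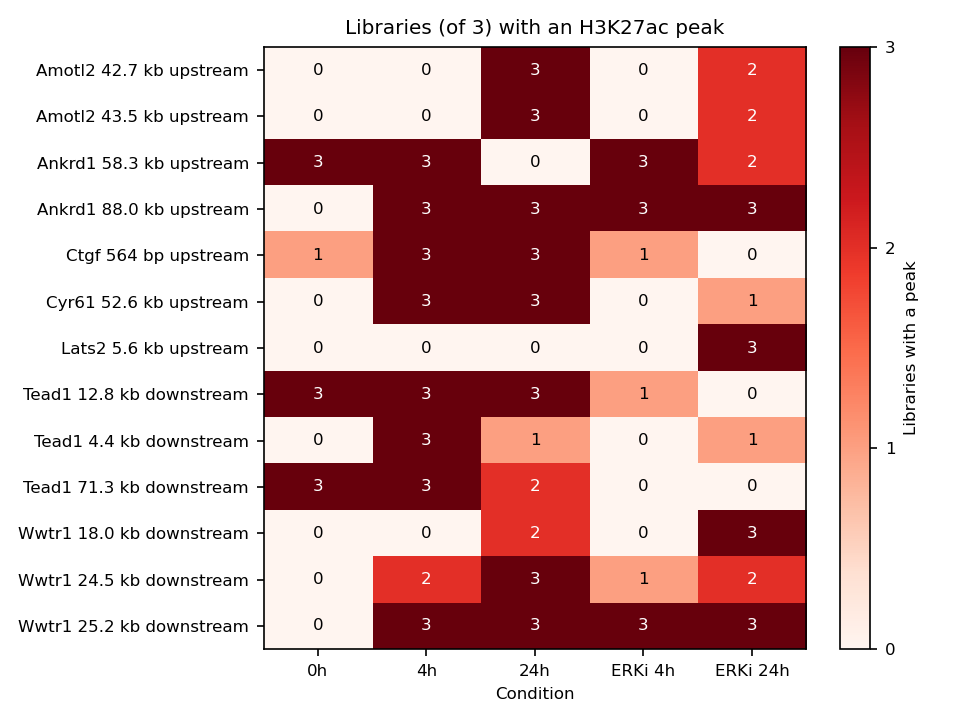
Number of libraries, of 3, with an H3K27ac peak in each group (x axis) at the 13 regions (y axis) that had a peak in all libraries of one group and in none of another. Regions of Wwtr1, Ankrd1, Cyr61 and Amotl2 are empty at 0h and full at 24h, and Tead1 12.8 and 71.3 kb downstream are full at 0h and empty at ERKi 24h.

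Whether the effect of ERKi differed between 4h and 24h was tested as an interaction in limma, which called 0 of the 54 regions. Of the 54, 2 had an unadjusted p under 0.05, as had 1518 of all 26934 regions. With the block 1 region was called, Amotl2 43.1 kb downstream, with a blocked adjusted p of 0.00773, against 4.42% of all regions called. Without ERKi 4h replicate 1 its blocked adjusted p was 0.043, against 2.54% of all regions called.

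The other genes of the Hippo pathway, 26 components from upstream kinases and scaffolds to further TEAD factors and Vgll cofactors, had 242 regions, of which 81 were tested. At 4h 7 were higher (8.64%, against 3.62% of all regions) and 2 lower (2.47%, against 0.197%), and at 24h 8 were higher (9.88%, against 10.3%) and 14 lower (17.3%, against 7.85%). With ERKi at 4h 0 differed from 4h by limma (7 had an unadjusted p under 0.05, and 3 were higher and 2 lower with the block), and with ERKi at 24h 14 were higher (17.3%, against 3.53%) and 2 lower (2.47%, against 3.98%) than at 24h. Between ERKi 24h and 0h 9 were higher (11.1%, against 11.2%) and 5 lower (6.17%, against 9.13%). The median log2 change of the 81 was -0.08 at 24h and 0.11 for ERKi 24h against 24h, against -0.07 and 0.02 over all regions.

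Many of these calls came from 1 gene, Ptpn14, whose phosphatase binds YAP and holds it in the cytoplasm. Of its 15 tested regions, 9 were lower and 1 higher at 24h, and 10 were higher and 0 lower for ERKi 24h against 24h, 2 contrasts that share the 24h libraries. Over all regions 7.85% were lower at 24h and 3.53% higher with ERKi, and the gene was singled out after its values were seen. The log2 change at 24h reached -1.86 ± 0.27 (SE, adjusted p = 0.00011) at the region 13.7 kb downstream of a start, and with ERKi it reached 1.63 ± 0.28 (SE, adjusted p = 0.00198) at the region 4.8 kb downstream. The region 27.2 kb downstream of a start of Vgll4, whose product competes with YAP for TEAD, rose by 2.07 ± 0.27 (SE, adjusted p = 4.23e-05) at 24h. Of the other Vgll4 regions called at 24h, those 33.0 and 81.9 kb downstream were higher (1.03 and 0.88) and those 0.4 and 7.3 kb downstream lower (-0.46 and -0.66). The region 9.9 kb downstream of Amotl1, an angiomotin gene, rose by 1.10 ± 0.27 (SE, adjusted p = 0.00703) at 24h and changed by -1.74 ± 0.27 (SE, adjusted p = 0.00079) with ERKi.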

How the data were processed

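H3K27ac ChIP-seq was analysed in 15 libraries; 10 RNA-seq and 3 input samples were not analysed here. Per the methods, the authors aligned the reads with bowtie to mm9, and MACS2 called the peaks of each library, both at default settings. The control behind the local background is not given in the sources used here. In the deposited lists the fold enrichment is a ratio of pileup to local background, and the authors wrote p-values and q-values as -log10. The score they deposited restates the q-value and was not used.

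The summit pileup was solved from fold enrichment and -log10 p, which failed to give a whole number within 0.005 for 25 of 893719 peaks. Overlapping peaks were merged into regions, a library's value being its highest peak, divided by the library's median over regions called in all 15 libraries. The 5 groups were fitted together by limma 3.58.1 (R 4.3.3) with an intensity trend, and Benjamini-Hochberg adjustment was over all 26934 regions. The step was tested on simulated data with noise drawn separately for each library, so that test could not judge the need for the block. Replicate numbers come from the labels, and 30 of 30 pairs of same-numbered libraries deviated together (r over 0.1, lowest 0.336, mean 0.581), so the block is given as an alternative. The mean r for different numbers, -0.284, is largely set by the 0.581, since the 3 deviations of a group add up to 0. Peak counts and promoter percentiles were compared by two-sided exact permutation tests.

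Start sites and gene places came from GENCODE vM1 and sequences from NCBIM37 (mm9). All 10 genes are named, with the 2 tested regions of lowest p a gene in 24h against 0h and in ERKi 24h against 24h, all called regions and those with a peak in all 3 libraries of a group and in 0 of another. Sequences shown are those upstream of 4 target genes and around distal summits of low p, of which 3 are printed. The windows of Ctgf and Cyr61 had the lowest p of their gene in 24h against 0h. That of Tead1 was picked by its p in ERKi 24h against 24h. The 2 CArG windows were chosen after their letters were seen. The members, lists and tests were chosen with earlier results of these data known. Alternatives were the block, quantile normalization, no scaling, fold enrichment, -log10 p, a peak in at least 3 libraries, -log10 q of at least 10, merging within 1000 bp, promoters within 2500 bp and leaving out each library; those of the interaction, and the block without ERKi 4h replicate 1, were added after the data were seen. Read totals are not in the lists, so the precision is that of 3 libraries a group and no interval for counting error is given.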

Additional observations from a re-analysis of the deposited data

Results flagged for a closer look

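The difference between the ERKi effects at 24h and at 4h was past the threshold at 1 of the 54 regions with the replicate block in limma, Amotl2 43.1 kb downstream, with 0.67 on the log2 scale (blocked adjusted p = 0.00773, adjusted p = 0.883 without the block). The change with ERKi there was -0.32 at 4h and 0.35 at 24h. Over all regions, 4.42% were past the threshold for this difference with the block.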

How the results depend on the processing

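Regions of the 10 genes past the threshold numbered 1, 7, 2, 4 and 9 of 54 for 4h against 0h, 24h against 0h, ERKi 4h against 4h, ERKi 24h against 24h and ERKi 24h against 0h, in this order. With the replicate block they numbered 5, 18, 6, 14 and 28, against 17.64, 37.66, 4.318, 28.14 and 42.69% of all regions. The block ended none of the 23 calls. Without scaling they numbered 0, 3, 1, 1 and 5, against 0.9653, 8.58, 0.104, 2.32 and 9.791% of all. As fold enrichment they numbered 0, 1, 0, 1 and 3, against 0.1931, 4.6, 0, 1.229 and 8.387% of all. By -log10 p in place of pileup they numbered 0, 2, 0, 1 and 4, against 2.12, 11.45, 0.03342, 4.756 and 14.86% of all. With a peak in at least 3 libraries, missing peaks were set to the library's lowest pileup. Then 4, 19, 1, 7 and 19 of 114 regions passed, against 3.04, 22.3, 0.184, 7.56 and 22.5% of all regions. By direction, these were 4 higher and 0 lower, 17 and 2, 0 and 1, 1 and 6, and 11 and 8. With -log10 q of at least 10, 1, 3, 0, 0 and 3 of 32 regions passed. In the last 4 of these contrasts, 9.6, 0.06821, 2.956 and 12.81% of all regions passed. Without 1 library in turn they ranged over 0 to 1, 5 to 9, 0 to 2, 1 to 4 and 5 to 12. The interaction called 1 region with the block (4.42% of all regions) and 0 without it. With the block and without ERKi 4h replicate 1, a fit added after the data were seen, it called 1 (2.54% of all regions). In that fit 3 regions passed for ERKi 4h against 4h. Quantile normalization kept 22 of the 23 calls and merging within 1000 bp kept 20. As fold enrichment, 0 of the 23 calls were kept and 9 changed sign. In sign, fold enrichment gave log2 changes at 4h of -0.0209 (Ctgf 14.7 kb upstream) and -0.26 (Ctgf 5.7 kb upstream, where -log10 p gave -0.0003636). At 24h it gave 0.0471, 0.0514 and 0.0464 at Amotl2 43.1, 46.9 and 50.7 kb downstream, -0.20, -0.31, -0.16 and -0.0821 at Ctgf 14.7, 38.8, 5.7 and 6.4 kb upstream, 0.0187 at Cyr61 16.6 kb downstream and -0.12 at Cyr61 35.6 kb upstream. For ERKi 24h against 24h it gave -0.28 at Amotl2 105 bp downstream (-0.15 by -log10 p), 0.44 at Tead1 5.8 kb downstream, 0.11 at Tead1 64.6 kb upstream and 0.20 at Tead1 655 bp upstream. For ERKi 24h against 0h it gave -0.0856 at Ctgf 38.8 kb upstream, -0.001268 at Ctgf 6.4 kb upstream and -0.18 at Cyr61 35.6 kb upstream. The cause was not tested, but the local background moved with these regions. The percentile of the Ctgf promoter peak differed by 51 at 4h and 54.8 at 24h from 0h, and by -0.29 and -0.64 as fold enrichment. For ERKi 24h against 24h it differed by -75.2, and by 10.5 with promoters within 2500 bp. The rise in distal Cyr61 peaks at 24h was 0 with -log10 q of at least 10.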

Other observations

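Further target genes of YAP and TAZ, 18 genes chosen from textbook knowledge with results of these data known, had 290 regions, of which 86 were tested. At 4h 10 were higher (11.6%, against 3.62% of all regions) and 1 lower (1.16%, against 0.197%), and at 24h 19 were higher (22.1%, against 10.3%) and 8 lower (9.3%, against 7.85%). Between ERKi 24h and 0h 22 were higher (25.6%, against 11.2%) and 1 lower (1.16%, against 9.13%). For ERKi 24h against 24h 6 were higher (6.98%, against 3.53%) and 5 lower (5.81%, against 3.98%), and for ERKi 4h against 4h 0 passed in limma, where 5 had an unadjusted p under 0.05, and 4 were lower with the block. Around Nt5e, which encodes an ecto-5′-nucleotidase of the cell surface, all 3 tested regions were higher at 24h, with 2.97 ± 0.24 (SE, adjusted p = 7.39e-07) on the log2 scale at the one 66.8 kb upstream, where ERKi 24h differed from 0h by 2.94 ± 0.24 (SE, adjusted p = 7.45e-07). Around F3, which encodes tissue factor, the region 20.1 kb upstream was higher by 1.76 ± 0.22 (SE, adjusted p = 3.43e-05) at 24h and by 1.53 ± 0.22 (SE, adjusted p = 0.000112) at ERKi 24h against 0h. At Myof, which encodes the membrane repair protein myoferlin, the region 84.2 kb downstream was higher by 1.31 ± 0.18 (SE, adjusted p = 6.96e-05) at 24h and differed by -0.88 ± 0.18 (SE, adjusted p = 0.00611) between ERKi 24h and 24h. The last 2 contrasts share the 24h libraries.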
